A study of Homo sapiens with 25 samples.

Results

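The 420 broad domains called for PML and the 410 called for lamin B1 (LMNB1) in control cells were compared domain by domain. These 830 domains were all members of the 2 lists, out of 1921 domains in the 5 domain lists of the series, and they came from 5 of its 25 libraries. They were set against H3K4me3 and H3K27ac peaks and H3K9me3 domains of control cells, with 2 libraries per mark. All libraries were chromatin immunoprecipitations or inputs of MDA-MB-231, an established human triple-negative breast cancer line, fixed with disuccinimidyl glutarate and formaldehyde. The 3 PML libraries name the line and no condition, and the 2 LMNB1 libraries are labelled as controls. PML knockdown by a lentiviral short hairpin RNA was made for the other targets, so the PML list has no knockdown check of its antibody. Each target had 1 deposited list with no value per replicate and no read depth. Every value below is therefore a description of a pair of lists from a single line, and the SD over autosomes measures spread along the genome, not between replicates.

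PML is the scaffold protein of PML nuclear bodies, spherical assemblies in the nucleoplasm that hold SP100, DAXX and SUMO-modified proteins. LMNB1 is a filament protein of the nuclear lamina, the layer beneath the inner nuclear membrane. Chromatin that touches the lamina lies in long, gene-poor stretches called lamina-associated domains, which are mostly late replicating and carry repressive histone marks. H3K4me3 is a mark of active promoters, H3K27ac of active promoters and enhancers, and H3K9me3 of constitutive heterochromatin.

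The domains run to megabases, so sequence is shown for 5 promoters inside them that bracket what the marks looked like there. Each window covers 250 bases before to 50 after the start of the GENCODE 44 canonical transcript, read 5′ to 3′ from the hg38 genome, with CG dinucleotides in capitals. PCNX4 (chr14:60091673-60091972, plus strand) had the highest H3K4me3 fold in sequence of both lists, and BBS10 (chr12:76348366-76348665, minus strand) in PML-only sequence. LSM8 (chr7:118183914-118184213, plus strand) lay farthest inside shared sequence among genes with both marks. ANKRD7 (chr7:118224454-118224753, plus strand) was the nearest unmarked gene to LSM8, and TFEC (chr7:116030714-116031013, minus strand) the nearest unmarked gene with the median CG count of unmarked promoters in shared sequence.
PCNX4: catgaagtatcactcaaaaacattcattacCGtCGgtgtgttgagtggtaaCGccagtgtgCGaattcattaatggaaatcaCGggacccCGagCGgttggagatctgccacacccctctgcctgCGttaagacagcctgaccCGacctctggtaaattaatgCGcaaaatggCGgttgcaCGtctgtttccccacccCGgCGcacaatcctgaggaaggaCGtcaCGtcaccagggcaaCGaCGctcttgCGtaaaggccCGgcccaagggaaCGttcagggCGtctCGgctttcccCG
BBS10: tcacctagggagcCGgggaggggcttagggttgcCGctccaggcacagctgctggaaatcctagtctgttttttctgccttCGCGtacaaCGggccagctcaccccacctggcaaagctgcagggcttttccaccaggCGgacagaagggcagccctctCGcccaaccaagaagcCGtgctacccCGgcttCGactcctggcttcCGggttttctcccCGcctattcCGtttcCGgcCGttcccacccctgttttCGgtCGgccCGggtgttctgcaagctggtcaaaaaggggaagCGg
LSM8: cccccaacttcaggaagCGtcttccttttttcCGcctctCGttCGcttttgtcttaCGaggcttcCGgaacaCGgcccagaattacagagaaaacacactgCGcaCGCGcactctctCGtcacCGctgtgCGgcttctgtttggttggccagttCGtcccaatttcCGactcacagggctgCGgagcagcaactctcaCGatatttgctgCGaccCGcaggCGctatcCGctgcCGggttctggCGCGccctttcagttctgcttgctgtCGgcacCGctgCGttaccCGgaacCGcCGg
ANKRD7: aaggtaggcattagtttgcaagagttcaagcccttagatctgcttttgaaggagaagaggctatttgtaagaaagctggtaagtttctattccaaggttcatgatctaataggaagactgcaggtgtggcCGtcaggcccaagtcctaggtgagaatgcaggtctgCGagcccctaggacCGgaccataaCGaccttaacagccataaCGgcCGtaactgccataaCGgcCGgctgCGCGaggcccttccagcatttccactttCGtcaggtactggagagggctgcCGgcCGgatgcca
TFEC: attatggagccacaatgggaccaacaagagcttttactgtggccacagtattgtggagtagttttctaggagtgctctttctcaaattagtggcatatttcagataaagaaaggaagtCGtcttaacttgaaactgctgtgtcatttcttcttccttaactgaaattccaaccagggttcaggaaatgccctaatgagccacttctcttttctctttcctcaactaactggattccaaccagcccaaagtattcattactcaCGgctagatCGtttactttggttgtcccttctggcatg
The 3 marked windows held 24, 19 and 30 CG in the order printed, and the 2 unmarked windows held 13 and 3.

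PML and LMNB1 occupied nearly equal amounts of the genome, and mostly the same sequence. Of 2911 Mb of gap-free sequence, PML domains held 970.2 Mb (33.3%) and LMNB1 domains 998.5 Mb (34.3%). They shared 869.1 Mb, which was 79.0% of the sequence in either list. PML-only sequence came to 101.1 Mb and LMNB1-only sequence to 129.4 Mb. Within this balance the lists leaned differently by chromosome. The share of PML length in LMNB1 domains was 89.6% over all chromosomes and ran from 61.9% on chromosome 18 through a median of 87.6% to 98.9% on chromosome 21 (SD 7.77 over 22 autosomes). The reverse share was 87.0% and ran from 68.3% on chromosome 4 through a median of 90.2% to 97.0% on chromosome 17 (SD 7.83).

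**Figure D1:**
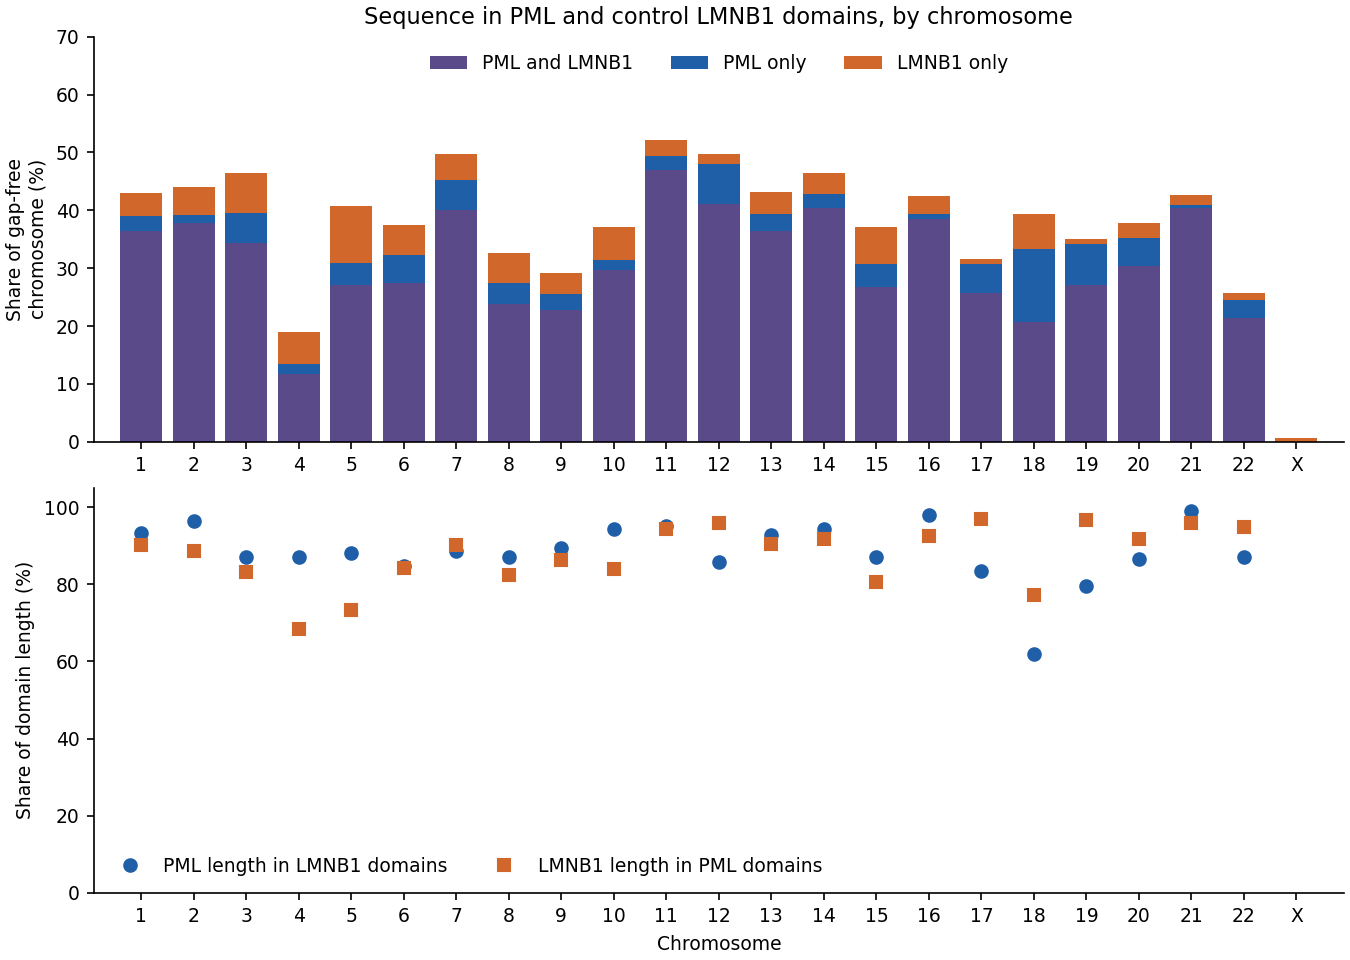
Upper panel, share of each gap-free chromosome (%) in sequence of both lists, of PML only and of LMNB1 only. Lower panel, share of PML length in LMNB1 domains (circles) and of LMNB1 length in PML domains (squares). Chromosome 18 has the lowest circle, at 61.9%, and chromosome 4 the lowest square, at 68.3%; X has no PML domain.

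Chromosome 4 was the autosome least covered by either list, with 13.5% in PML and 17.2% in LMNB1 domains, and chromosome 11 the most covered, with 49.3% and 49.9%. Across the 22 autosomes the ranks of the 2 coverages ran together (Spearman rho 0.91, a description, since chromosomes share the same lists and libraries). Chromosome X held no PML domain and 1.00 Mb of LMNB1 domain. On 15 of 22 autosomes LMNB1 covered more sequence than PML. Chromosomes 7, 12, 17, 18, 19, 20 and 22 were the exceptions. Chromosome 18 held 10.2 Mb of PML-only sequence in a PML length of 26.7 Mb. Chromosome 5 held the most LMNB1-only sequence, 17.97 Mb. Copy number of this line was not analysed here.

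Most domains had a partner that covered nearly all of them, and a minority had none. LMNB1 domains covered 169 of the 420 PML domains completely and another 127 to at least 90%. A further 49 were covered from 50% to under 90%, 4 by less than 50%, and 71 had no overlap at all. LMNB1 domains were less evenly filled by PML. PML covered 77 of the 410 completely, 157 from 90% up, 106 from 50% to under 90%, 17 by less than 50%, and left 53 without overlap. At the 50% threshold this gave 345 PML domains and 340 LMNB1 domains.

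PML domains without LMNB1 were short. Their median length was 549 kb, from 117 to 3591 kb, against 1476 kb for the 349 that overlapped LMNB1, and 5 of the 71 reached 1000 kb. They held 4.67 gene starts, 3.95 H3K4me3 peaks and 10.96 H3K27ac peaks per Mb. PML domains fully inside LMNB1 held 2.38, 1.67 and 4.61, and the 349 with any overlap 2.59, 2.29 and 6.18. Chromosome 19 weighed on the values without LMNB1, and they were not recomputed without it. It had 7 of the 71 domains, and its 4.07 Mb of PML-only sequence held 21.6 gene starts and 15.99 H3K4me3 peaks per Mb. H3K9me3 coverage also differed between domains without LMNB1 and those fully inside, with overlap. The median domain without LMNB1 had 0% of its length in H3K9me3 domains. Of the 71, 47 had none and 23 were covered to at least 50%. The median fully covered PML domain had 97.1%, with 116 of the 169 covered to at least 50% and 41 without any. Domains covered from 50% to under 90%, with a median length of 1962 kb, again had a median of 0%. The deposited domain score also differed, with medians of 27.4 without LMNB1 and 62.2 fully inside, but score ran with length over all PML domains (Spearman rho 0.92), so short domains are also those with low scores.

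LMNB1 domains without PML were of another kind. Their median length was 833 kb, from 289 to 1989 kb, and their median H3K9me3 coverage was 93.7%, with 31 of the 53 covered to at least 50% and 21 without any. They held 1.22 gene starts, 1.02 H3K4me3 peaks and 2.40 H3K27ac peaks per Mb. LMNB1 domains fully inside PML held 2.35, 2.43 and 6.71 per Mb. Their median H3K9me3 coverage was 0%, with 39 of the 77 without any and 28 covered to at least 50%. By chromosome, PML domains without LMNB1 were most numerous on chromosomes 7 (8 of 24), 19 (7 of 19) and 17 (6 of 17). LMNB1 domains without PML were concentrated on chromosome 4, with 12 of its 19, and chromosome 5, with 7 of 29. Chromosomes 12, 13, 17, 19, 21 and 22 had none.

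**Figure D2:**
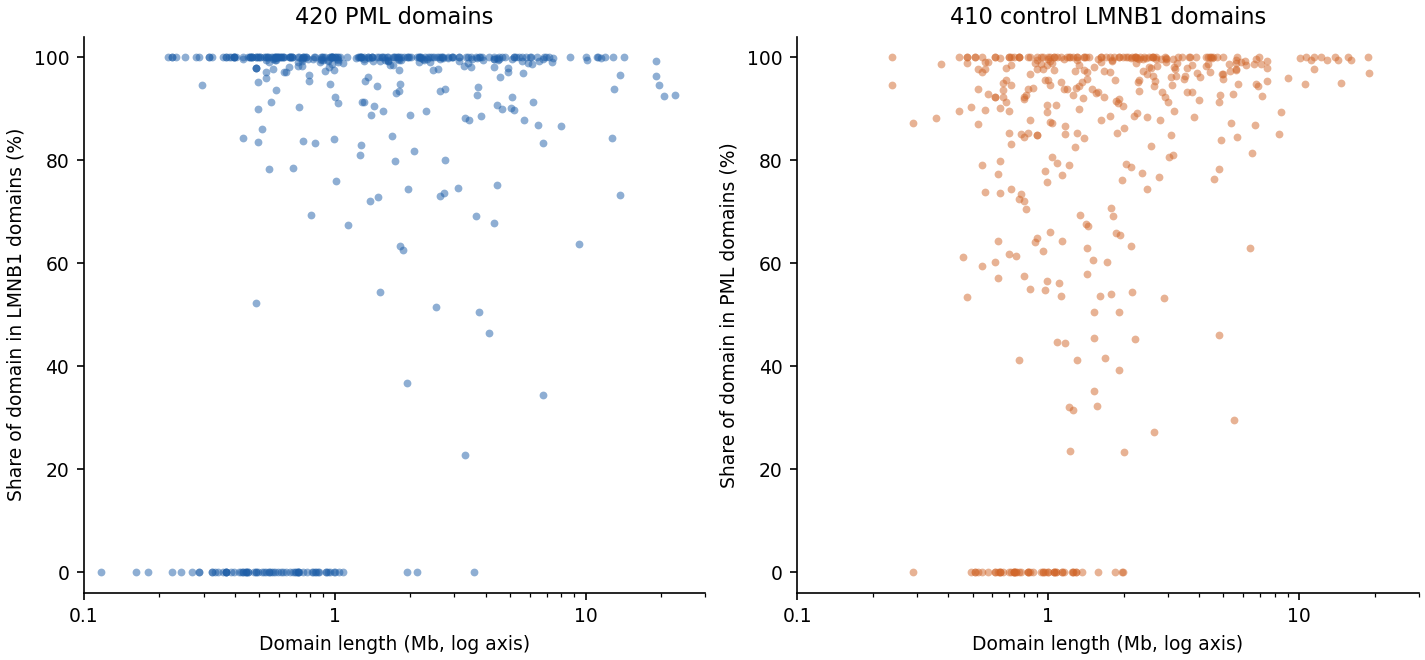
Length of each domain (Mb, log axis) against the share of it inside the other list (%), 1 point per domain. The 71 PML domains at 0% are mostly under 1 Mb, the 53 LMNB1 domains at 0% all under 2 Mb, and the longest domains of both lists lie at the top.

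Several further values differed with domain length. The 74 PML domains under 500 kb had 57.3% of their sequence in LMNB1 domains, the 129 from 500 to 1000 kb had 72.0%, and the 49 of 5000 kb and more had 94.2%. Sequence in H3K9me3 domains went the other way, from 64.6% in the shortest group to 32.2% in the longest. Domain by domain this relation was weak (Spearman rho -0.18 over 420 PML domains). Genes were sparser in long domains and more often marked. PML domains under 2000 kb held 4.86 gene starts per Mb, of which 28.7% had an H3K4me3 promoter peak, and longer ones held 1.95 per Mb, of which 54.6% were marked. Over all protein-coding genes 61.8% carried that mark. Without olfactory receptor genes, which sit mostly in shorter domains, the shares were 37.7% and 55.3%. The long domains of a chromosome had the larger marked share on 17 of 22 autosomes and the smaller on 4, while H3K9me3 coverage was lower in the long domains on 14 of 22.

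In 295 cases a PML domain overlapped a single LMNB1 domain that overlapped no other PML domain. Another 20 PML domains spanned 46 LMNB1 domains, 14 LMNB1 domains spanned 32 PML domains, and 1 group joined 2 of each. The 295 pairs allowed both edges to be compared. LMNB1 domains reached a little further out. The median offset of the 590 edges was -22.0 kb, negative meaning that the LMNB1 edge lay outside the PML edge, with an interquartile range of -118.5 to 6.0 kb and extremes of -1757 and 4057 kb. Such a median is close to the resolution of the lists, since PML bounds come in steps of 9 kb and LMNB1 bounds in steps of 17 kb, and 181 edges (30.7%) coincided within 17 kb.

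The lean towards LMNB1 was clearer among the larger offsets. LMNB1 lay outside PML at 382 edges and PML outside LMNB1 at 199, and among offsets over 50 kb the numbers were 232 and 77. PML lay inside its partner at both edges in 141 pairs and LMNB1 inside PML in 49. Lengths of partners ran together (Spearman rho 0.92 over 295 pairs of domains, which overlap by construction), with median lengths of 1368 kb in the PML list and 1513 kb in the LMNB1 list. The LMNB1 domain was longer in 210 pairs. The median offset was below 0 on 20 of 22 autosomes (SD of the autosome medians 38.8 kb). Chromosome 17 had a median of 0 kb over 11 pairs, and chromosome 4 one of 53.0 kb over 6 pairs.

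**Figure D3:**
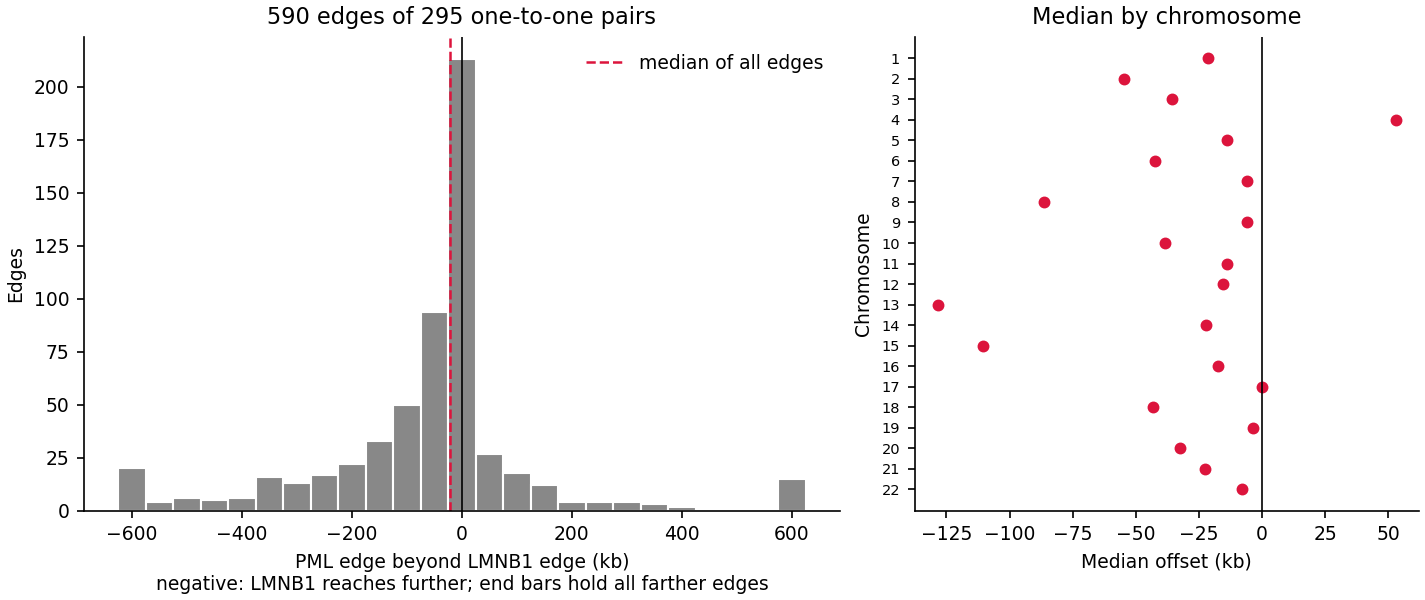
Left, histogram of the distance (kb) by which the PML edge reaches beyond the LMNB1 edge in 295 pairs, with both edges of each pair. Right, the median by chromosome (kb). Most edges sit in the central bar or to its left, and chromosome 4 alone has a median above 0.

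Counting every PML edge against the nearest LMNB1 edge of the same side divided the edges into 3 groups of similar size. Of 840 PML edges, 307 (36.5%) lay within 50 kb of an LMNB1 edge, 300 lay farther away inside an LMNB1 domain and 233 farther away outside. Windows of 50 kb around LMNB1 edges of one side covered 1.47% of the gap-free autosomes. LMNB1 edges away from a PML edge lay mostly outside PML, 366 of 818 edges on autosomes, against 145 inside. At 25 kb the shared PML edges were 28.1% and at 100 kb 49.0%.

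Active marks were sparser inside than outside at edges of every kind, from different levels. At shared edges H3K4me3 peaks numbered 12.8 per Mb in the 50 kb outside the PML edge, 4.76 in the 50 kb inside and 1.56 in the 50 kb beyond that. The following 50 kb held 2.28. LMNB1 edges that lay outside PML gave 12.1 per Mb outside and 2.62 inside. The inner windows held no PML domain because of how these edges were chosen. LMNB1 edges inside PML domains, with PML on both sides, gave 10.3 and 4.55 per Mb for H3K4me3 and 25.7 and 11.7 for H3K27ac. PML edges inside LMNB1 domains had low values on both sides, 3.27 and 1.33 per Mb for H3K4me3, and reached 6.69 between 100 and 150 kb farther out, where 65.6% of the sequence was still in LMNB1. PML edges outside LMNB1 gave 10.6 per Mb of H3K4me3 outside, 6.27 in the 50 kb inside, 4.55 in the next 50 kb and 2.58 in the 50 kb after that. H3K27ac there was 20.6 per Mb outside, 18.03 in the 50 kb inside and 13.0 in the next 50 kb. H3K9me3 moved with these edges. At LMNB1 edges inside PML it covered 10.9% of the outer and 17.9% of the inner 50 kb, and at LMNB1 edges outside PML 33.8% and 50.8%. The part of H3K9me3 and of base composition in these steps was not tested; GC content at PML edges outside LMNB1 was 41.6% outside and 39.1% inside.

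**Figure D4:**
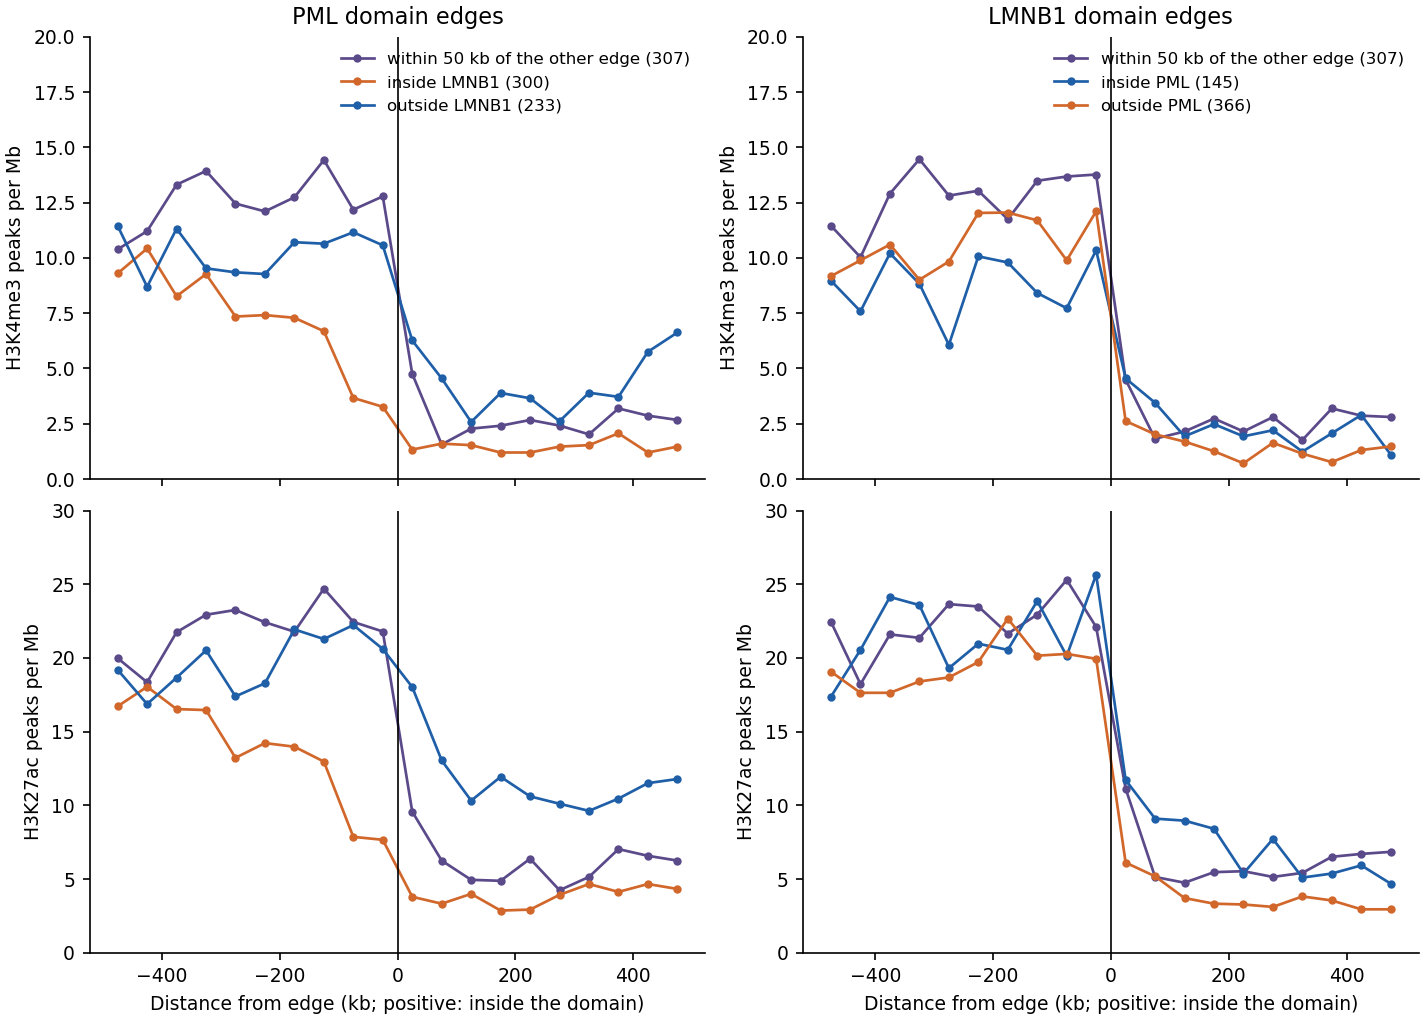
Peaks per Mb of H3K4me3 (top) and H3K27ac (bottom) in 50 kb steps to 500 kb on either side of PML edges (left) and LMNB1 edges (right), split by where the edge lies in the other list, with the number of edges in brackets. PML edges inside LMNB1 have 3.27 and 1.33 H3K4me3 peaks per Mb on either side of 0, and PML edges outside LMNB1 10.6 and 6.27.

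Each base of the genome was then placed in 1 of 4 classes, PML+LMNB1, PML-only, LMNB1-only or neither. PML+LMNB1 sequence was the poorest in genes, with 2.46 gene starts per Mb. LMNB1-only sequence held 2.58, PML-only sequence 4.73 and the rest of the genome 9.40. This placed 2134 genes in PML+LMNB1 (10.7% of 19970), 478 in PML-only (2.39%) and 334 in LMNB1-only sequence (1.67%), and 17022 in neither list (85.2%), with 2 starts in gaps. Of the 2946 genes inside, 72.4% were in PML+LMNB1. The SDs over autosomes were 2.72, 5.09 and 3.71 genes per Mb in these 3 classes, so the gene densities overlapped along the genome. PML-only sequence was richer than PML+LMNB1 on 17 of 22 autosomes, not on chromosomes 5, 18, 20, 21 and 22, and richer than LMNB1-only on 13.

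Active marks were denser in PML-only sequence than in either class with LMNB1. H3K4me3 peaks numbered 2.02 per Mb in PML+LMNB1 (SD 1.40 over 22 autosomes), 5.40 in PML-only (SD 3.74), 2.03 in LMNB1-only (SD 4.19) and 10.8 in the rest (SD 4.69). H3K27ac peaks numbered 5.37 (SD 1.97), 15.3 (SD 5.74), 4.75 (SD 5.95) and 19.6 (SD 4.33) per Mb. PML-only sequence thus had 2.68 times the H3K4me3 and 2.84 times the H3K27ac density of PML+LMNB1 sequence, where gene density was 1.93 times as high. The order held on 21 of 22 autosomes for each mark, with chromosome 18 the exception for H3K4me3 and chromosome 20 for H3K27ac. Against LMNB1-only sequence, PML-only was higher on 19 autosomes for H3K4me3 and 20 for H3K27ac. The chromosome 19 exception for both rests on 0.57 Mb of LMNB1-only sequence. The rest of the genome was higher than PML-only on all 22 autosomes for H3K4me3 and on 18 for H3K27ac, with chromosomes 1, 6, 9 and 12 reversed.

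**Figure D5:**
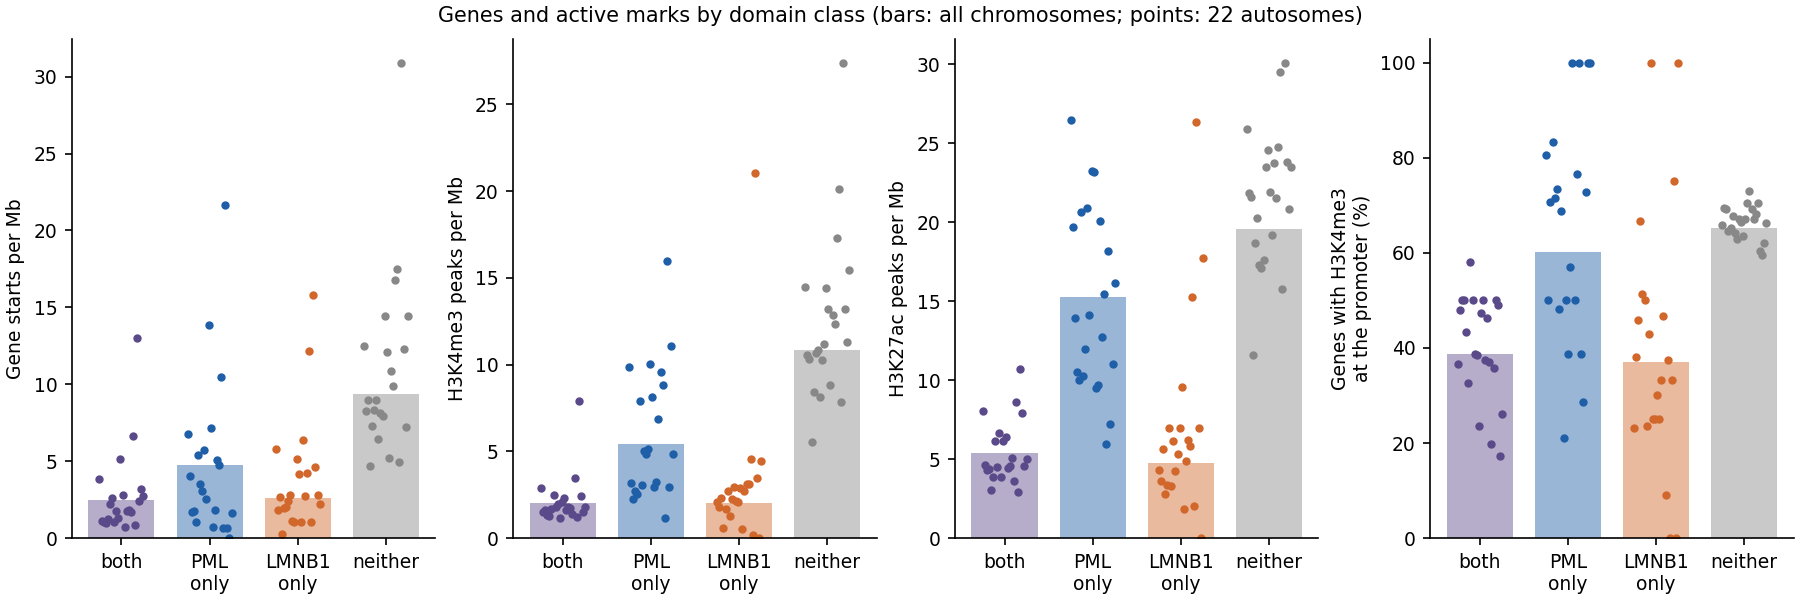
Gene starts, H3K4me3 peaks and H3K27ac peaks per Mb, and the share of genes with an H3K4me3 promoter peak (%), in the 4 classes. Bars give the value over all chromosomes and points the 22 autosomes; H3K27ac in PML-only sequence (15.3 per Mb) lies nearer to the rest of the genome (19.6) than to PML+LMNB1 (5.37).

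At promoters the same split appeared. An H3K4me3 peak lay within 1 kb of the start of 827 of 2134 PML+LMNB1 genes (38.8%), 288 of 478 PML-only genes (60.3%) and 124 of 334 LMNB1-only genes (37.1%), with 65.3% in the rest and 61.8% over all genes. H3K27ac marked 30.8%, 54.4%, 28.1% and 53.7% in the same order, against 50.8% over all genes. The H3K27ac share in PML-only sequence lay close to that outside the domains. Most H3K27ac peaks lay away from promoters in every class, 84.0% in PML+LMNB1, 80.9% in PML-only, 83.9% in LMNB1-only sequence and 69.6% in the rest. GC content was 37.5% in PML+LMNB1, 38.4% in PML-only, 40.8% in LMNB1-only sequence and 42.6% in the rest. H3K9me3 domains covered 46.1%, 15.9%, 61.5% and 7.32%. H3K9me3 coverage was higher in PML+LMNB1 than in PML-only sequence on 21 of 22 autosomes, not on chromosome 7, and its part in the mark densities was not tested.

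PML-only sequence was itself mixed. Whole domains without LMNB1 made up 46.1 Mb, flanks where a PML domain outran LMNB1 36.9 Mb, and gaps between LMNB1 domains inside a PML domain 18.1 Mb. H3K27ac peaks numbered 10.96, 16.6 and 23.4 per Mb in these 3 kinds, and 47.0%, 66.7% and 75.6% of their genes had an H3K4me3 promoter peak. The inner gaps also had the least H3K9me3, 1.76%, against 27.4% in whole domains. Chromosome 19, with 7 of the 71 whole domains, weighed on the whole-domain values. Its PML-only genes were marked at 72.7%, and 92.0% of its PML-only sequence lay in H3K9me3 domains. Whole domains were not counted without this chromosome, so their 47.0% is not shown to hold elsewhere. LMNB1-only sequence consisted mainly of flanks, 73.3 Mb, and whole domains, 49.1 Mb, with 6.98 Mb of inner gaps. Its H3K27ac densities were lower in each kind, 6.02 in flanks, 2.40 in whole domains and 8.03 per Mb in inner gaps.

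Marked promoters held more CG than unmarked ones at the median in every class, with overlap. Marked promoters had a median of 23 CG per 300 bases in PML+LMNB1, 24 in PML-only and 26 in LMNB1-only sequence, against 28 in the rest. Unmarked promoters had medians of 3, 3, 10 and 8. Of unmarked promoters 27.9%, 17.9%, 50.5% and 44.4% still held 10 or more CG, and in LMNB1-only sequence their 75th percentile, 27.5, lay above the marked median. The windows printed above were chosen with their counts known and only illustrate the range. The classes also differed in how many CG-rich promoters, here those with 10 or more CG, carried the mark. In PML+LMNB1 sequence 748 of 1112 did (67.3%), in PML-only 261 of 295 (88.5%), in LMNB1-only 116 of 222 (52.3%) and in the rest 80.2%. Among all promoters 74.5% held 10 or more CG, and 52.1%, 61.7% and 66.5% did in the 3 domain classes. The dinucleotide is its own reverse complement, so the count covers both strands.

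Some genes in shared sequence had strong marks. H3K4me3 and H3K27ac values here are the authors' fold enrichments of the promoter peak, used only to rank within a list. PCNX4, which encodes a pecanex-like membrane protein, had folds of 71.1 and 45.6 at 64.1 kb inside a 576 kb stretch. It was followed by SVIP, an inhibitor of protein degradation at the endoplasmic reticulum (63.1 for H3K4me3), TMEM260, a mannosyltransferase (58.9), ORC5, a subunit of the origin recognition complex (58.2), and ZNF317, a zinc finger protein (55.3). SVIP lay 2157 kb inside a stretch of 11.1 Mb on chromosome 11, so these were not all genes at the rim.

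The 5 genes with both marks that lay farthest inside shared sequence were all in the 18.9 Mb stretch of chromosome 7 from 108596001 to 127466000. LSM8, a component of the spliceosome's U6 particle, lay 9282 kb from the nearest end with folds of 17.8 and 11.2. ST7, a candidate tumour suppressor, and an unnamed gene that shares its promoter peak had an H3K4me3 fold of 23.2. CAPZA2, a subunit of the actin capping protein, had 31.4. MET, the hepatocyte growth factor receptor, had 23.1 and 8.69 at 8076 kb. The caveolin genes CAV1 and CAV2 lay in the same stretch with H3K4me3 folds of 25.7 and 22.1, and CAV1 had an H3K27ac fold of 19.1. ANKRD7 and TFEC, a transcription factor of the MITF family, lay in the same stretch on either side of these genes, with no promoter peak of either mark.

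The PML-only genes with the highest H3K4me3 folds were BBS10, a chaperonin-like protein of the cilium (76.1), FAM98B, a part of the tRNA ligase complex (67.0), ZNF215 (60.8), COPS2, a subunit of the COP9 signalosome (55.3), and SLC38A1, a glutamine transporter (55.2). BBS10 lay 831.6 kb inside PML-only sequence of 1666 kb, and SLC38A1 900.0 kb inside a stretch of 2000 kb. In LMNB1-only sequence the highest was GAS2L3, a protein linking actin and microtubules, with 55.3. AURKA, the mitotic Aurora kinase, and CSTF1, a factor of mRNA 3′ end cleavage, share 1 peak with a fold of 47.2. They lay 13.8 and 13.4 kb inside a stretch of 57 kb, less than the 17 kb grid step. CFAP61 and CRNKL1, a splicing factor, share another of 45.4. Short stretches made class membership less certain on this side. Within 17 kb of a class border lay 83 of the 334 LMNB1-only genes (24.9%), 64 of the 478 PML-only genes (13.4%) and 53 of the 2134 PML+LMNB1 genes (2.48%).

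The longest PML-only stretches lay on chromosomes 18 and 20. The longest, chromosome 18 from 37899001 to 41956000, held 1 gene start, that of PIK3C3, the class III phosphoinositide kinase of autophagy, 0.767 kb from its end and so not resolved from it. It held 5 H3K4me3 and 21 H3K27ac peaks and no H3K9me3 domain. The next, chromosome 18 from 27360001 to 30951000, was a whole PML domain of 3591 kb without LMNB1. Its only gene, CDH2, encodes N-cadherin, and had neither mark at its promoter, while 21 H3K27ac peaks lay in the domain. The stretch on chromosome 20 from 14121001 to 16677000 held FLRT3, an adhesion protein, and KIF16B, a kinesin, both marked (H3K4me3 folds 26.2 and 18.4).

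The longest LMNB1-only stretch, chromosome 5 from 113458001 to 117261000, held 17 gene starts, 16 H3K4me3 and 24 H3K27ac peaks in 3803 kb, with 65.5% in H3K9me3 domains. MCC, YTHDC2 and TRIM36 were marked by H3K4me3 (23.3, 16.8 and 26.3), and KCNN2, a calcium-activated potassium channel, was not. The stretch on chromosome 7 from 49581001 to 51687000 lay in an LMNB1 domain between 2 PML domains, and entirely in H3K9me3 domains. It held 8 gene starts, 5 H3K4me3 and 14 H3K27ac peaks. VWC2, ZPBP, SPATA48 and IKZF1, the last a lymphoid transcription factor, had neither mark, while FIGNL1 and GRB10, named after their values were seen, had H3K4me3 at the promoter. The next, chromosome 5 from 62679001 to 64668000, was a whole LMNB1 domain without PML, with HTR1A unmarked and RNF180 and RGS7BP marked by H3K4me3 alone (21.1 and 6.36).

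Gene families lay in the classes in different proportions. Among all genes, 10.7% started in PML+LMNB1, 2.39% in PML-only and 1.67% in LMNB1-only sequence, and 61.8% carried H3K4me3. Of 416 olfactory receptor genes, 278 started in PML+LMNB1 (66.8%), 31 in PML-only and 13 in LMNB1-only sequence, and 1 of the 416 carried H3K4me3. Among 149 keratin and keratin-associated genes, 89 lay in PML+LMNB1, 2 in LMNB1-only and none in PML-only sequence. The last 2 counts lie near the small shares over all genes. The bitter taste receptors went the other way. Of 24, 14 lay in PML-only sequence and 1, TAS2R16, in PML+LMNB1. All 14 sat in the PML domain of chromosome 12 from 10368001 to 11295000, which had no LMNB1 overlap and none of its length in H3K9me3 domains. None of these receptors carried H3K4me3, although the domain held 31 gene starts, 10 H3K4me3 and 19 H3K27ac peaks.

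Over all genes 61.8% carried H3K4me3, over all ZNF genes 85.4% and over all histone genes 62.3%. Of 515 ZNF genes, 119 lay in PML+LMNB1 (92 with H3K4me3), 65 in PML-only (60 with H3K4me3) and 4 in LMNB1-only sequence (3 with H3K4me3). Of 77 histone genes, 8 lay in PML-only sequence on chromosome 6, from H1-1 to H3C3, and 7 of them carried H3K4me3. The 2 in PML+LMNB1, H2AC1 and H2BC1, did not. H3C1 and H4C1 share a peak of fold 18.5, and their stretch was 70 kb long. Neuronal families were placed as follows, where 10.7% of all genes started in PML+LMNB1, 2.39% in PML-only and 1.67% in LMNB1-only sequence, so that a count of none in PML-only sequence lies near the background. Of 25 genes of axon guidance and synaptic adhesion, 16 lay in PML+LMNB1, among them ROBO1 and SEMA3A, none in PML-only, and NRXN3 and DCC in LMNB1-only sequence. Of 47 GABA and glutamate receptor genes, 22 lay in PML+LMNB1, none in PML-only and GRIK3 in LMNB1-only sequence. Of 96 potassium channel genes, 19 lay in PML+LMNB1, KCNJ18 and KCNS3 in PML-only, and 5 in LMNB1-only sequence. These are positions in lists, and clustered genes of a family share a domain, so their counts are not independent. How reads of near-identical copies were placed was not analysed here.

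In the lists chosen for this line, 65.0% of metastasis genes, 66.7% of genes of epithelial to mesenchymal transition and 58.3% of collagen genes started in neither list, against 85.2% of all genes. Over all genes 10.7% started in PML+LMNB1, 2.39% in PML-only and 1.67% in LMNB1-only sequence. H3K4me3 marked 61.8% of all genes and 38.8% of those in PML+LMNB1. Of 20 metastasis genes, 6 lay in PML+LMNB1, and PTGS2, ADAMTS1, TNC and KYNU among them had H3K4me3 (26.3, 24.9, 13.6 and 4.37), while VCAM1 and MMP2 did not. Over the whole metastasis list 12 of 20 had the mark. MMP1, the interstitial collagenase, lay 238.8 kb inside PML-only sequence with neither mark. Among 15 genes of epithelial to mesenchymal transition, 7 of them marked, ZEB2, CDH11, PRRX1 and TWIST1 lay in PML+LMNB1. Of these, ZEB2 and CDH11 were marked (12.7 and 30.3). Of 18 genes of the TGF-beta and BMP pathway, NOG and BMP2 lay in PML+LMNB1 (11.1%) and TGFB2 in PML-only sequence (5.56%), near the shares over all genes. All 3 had H3K4me3 (13.0, 14.1 and 13.4), as had 17 of the 18 in the list. Of 12 collagen genes, 4 lay in PML+LMNB1, and COL1A2 in PML-only sequence, unmarked. Of 20 interferon response genes, IFI44L, IFI44, RSAD2 and IFIH1 lay in PML+LMNB1, and TRIM22 5.21 kb inside PML-only sequence, less than the grid step. KRT19, a luminal keratin, lay in LMNB1-only sequence of 14 kb, again below that step.

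PML and LMNB1 themselves started outside both lists, and so did all 14 genes of the PML nuclear body list and all 17 of the lamina and envelope list. No housekeeping gene of 15 started in either list. With 85.2% of all genes in neither list, lists of this size with no member inside carry little information. As a check of the label, both marks lay at 7 of 7 picked marker genes of mesenchymal basal-type cells, the type of the line. Of 7 luminal genes 4 had H3K4me3 and none H3K27ac, and 5 genes of immune, endothelial and liver cells had neither. The longer lists did not separate in this way, with H3K4me3 at 8 of 12 basal, 7 of 15 epithelial to mesenchymal transition and 9 of 15 luminal genes. Among all genes 61.8% carried H3K4me3 and 50.8% H3K27ac at the promoter, so the basal and luminal lists lay near that share.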

How the data were processed

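Chromatin immunoprecipitation sequencing libraries of MDA-MB-231 cells were processed by the authors on hg38. The submitters' processing notes list deepTools, MACS2 2.2.7.1, Picard 1.104 and BWA 0.7.12-r1039 and give them no role. The deposited domain lists hold a score for each domain, whose unit and caller settings are not given in the sources used here; file names alone point to EDD as the caller. Whether replicates were pooled for domains is likewise not given. For each peak the authors deposited a fold enrichment, which is a ratio, and a -log10 q-value of at least 1.31. Names of the deposited peaks show that replicates 1 and 2 were pooled for calling. Peak lists marked ct were read as control, an assumption. The H3K9me3 domain list used was the one whose name carries no knockdown label, also read as control. Read depth is unknown, so no counting error can be given.

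Domains on chromosomes 1 to 22 and X were compared in 1 kb bins outside assembly gaps of at least 10 kb, with pandas 2.3.3 and numpy 2.4.6 under Python 3.11.15. Correlations used scipy 1.17.1 and plots matplotlib 3.10.9. Overlap counts were checked with bedtools 2.31.1, and the measures were tested on simulated lists. Peaks were placed by midpoint after repeats of an interval were merged (22211 H3K4me3 and 42320 H3K27ac peaks). GENCODE 44 gave 19970 protein-coding genes, placed by their canonical start, with promoters of 1 kb on either side. CG was counted in 19967 promoters with a full window. No test was run, since each target has 1 list. Named genes were PML and LMNB1, the 5 with the highest H3K4me3 fold per class, the 5 with both marks farthest inside shared sequence, genes of the 3 longest stretches of 1 list only, and up to 4 members per gene list in such sequence; TFEC, ANKRD7 and the members named in PML+LMNB1 sequence were chosen after their values were seen. A few items that fell under this rule are not reported here. Domains, lists and measures were chosen with earlier results of these data known.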

Additional observations from a re-analysis of the deposited data

How the results depend on the processing

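The 22 results were recomputed under 20 alternatives, which gave 182 values. Only the median offset could change sign, since counts, shares and densities cannot be negative, and it did not. A count was held to have moved beyond 1.5 times, a share of genes outside its 95% Wilson interval, and another value beyond the SD over autosomes or 1.5 times. For some densities the SD exceeded the value itself, as for genes in PML+LMNB1 sequence (2.46, SD 2.72). There the limit of 1.5 times alone decided. By this rule 7 values moved. The share of PML edges near an LMNB1 edge became 49.0% with a window of 100 kb. The share of genes with H3K4me3 in PML-only sequence became 66.2% with domains of at least 500 kb only, and then exceeded the rest of the genome. Olfactory receptor genes left out, an alternative chosen after seeing the data, gave 44.5% in PML+LMNB1 sequence. In the rest of the genome that share became 63.5% and 66.7% with promoters of 500 and 2500 bp, 66.6% without chromosomes 19 and X and, chosen after seeing the data, 66.2% on autosomes only. PML-only exceeded PML+LMNB1 and LMNB1-only sequence in gene and peak density under all 9 alternatives run for each. The order of PML+LMNB1 and LMNB1-only, which lie close together, changed for gene density under 1 of 9 and for H3K4me3 under 2 of 9.

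The shares of length stayed between 88.5% and 90.5% for PML and between 85.9% and 88.0% for LMNB1, and the median offset between -25.0 and -20.5 kb. No paired analysis was possible because each target has 1 list and no value per replicate, and leaving out replicates was not possible for the same reason. Precision is limited by the unknown depth, by calling thresholds, and by grids of 9 kb for PML, 17 kb for LMNB1 and 23 kb for H3K9me3. Sequence missing from a list fell below its threshold, which is not absence of the protein.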

Other observations

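Marking did not run evenly with depth inside shared sequence. Of 151 genes that started up to 50 kb inside PML+LMNB1 sequence, 35.1% had an H3K4me3 promoter peak. The shares were 29.0% of 145 genes from 50 to 100 kb, 25.4% of 422 genes from 100 to 250 kb, 31.4% of 408 genes from 250 to 500 kb, 33.8% of 311 genes from 500 to 1000 kb, and 56.2% of 697 genes beyond 1000 kb. No olfactory receptor gene lay beyond 1000 kb, and without these genes the shares in the same order were 43.8%, 37.8%, 33.7%, 37.9%, 38.3% and 56.2%. Of these depths, only that beyond 1000 kb had a share above that of the outermost genes, with or without them. Depth beyond 1000 kb is possible only in long stretches, and depth was not compared within stretches of like length. The part of domain length in these shares was therefore not tested.

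Very long genes were frequent in shared and in LMNB1-only sequence. Genes of 500 kb or more made up 136 of 2134 (6.37%) in PML+LMNB1, 21 of 334 (6.29%) in LMNB1-only, 12 of 478 (2.51%) in PML-only sequence and 0.899% in the rest. Several families had no start in either list, as had 85.2% of all genes. They were all 39 HOX genes, 53 clustered protocadherin genes, 39 proteasome genes, 15 type I interferon genes, 22 UDP glucuronosyltransferase genes and 13 B-clade serpin genes, and the clustered ones among them sit at few loci. Of 80 ribosomal protein genes, RPL10L, an unmarked copy of RPL10, alone lay in a domain. In the 100 kb outside PML edges, 378 of 708 gene starts (53.4%) were transcribed away from the domain, and 224 of the 394 with H3K4me3 (56.9%). Outside PML edges that lay inside LMNB1, the highest group, the numbers were 92 of 157 (58.6%) and 37 of 55 (67.3%). Shared PML edges gave 52.3% and 54.9%, and PML edges outside LMNB1 51.2% and 55.6%. The 100 kb outside all LMNB1 edges gave 51.8% and 53.8%. None of these shares was tested.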
